A study of Homo sapiens with 8 samples.

Results

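The comparison described here is PHF13 depletion in Panc-1 cells kept with TGFβ, that is siPHF13 + TGFβ against siControl + TGFβ. Panc-1 is an established human line from a carcinoma of the pancreatic duct, and it was the only line sequenced. The members are the 4 TGFβ-treated libraries, 2 of each condition, out of 8 in the series. All cells, the controls included, went through lipid transfection with siRNA. siControl cells received a non-targeting siRNA, and siPHF13 cells received siRNAs against PHF13. From the day after transfection, the treated cells were kept for 48 h with 10 ng/ml TGFβ, and the other 4 libraries, siControl and siPHF13, come from cells without it. mRNA levels are gene counts divided by a size factor of the library, written below as normalized counts, for 13307 genes. Depletion effects are log2 fold changes on log2(normalized count + 1), from one limma fit over the 8 libraries. A gene is called at a Benjamini-Hochberg adjusted p under 0.05 together with an absolute log2 fold change over 0.58. To ask what belongs to the TGFβ-treated state, the effect without TGFβ was subtracted from the effect with TGFβ, and this difference was tested gene by gene with the same thresholds.

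PHF13 is a PHD finger protein that binds the H3K4 methylation found at active promoters. TGFβ binds a pair of receptor kinases that phosphorylate SMAD proteins, which then enter the nucleus and act on target genes with other transcription factors. In carcinoma cells the cytokine drives the epithelial to mesenchymal transition (EMT), in which cells loosen their junctions and make matrix, integrins and motility proteins.

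Between 39196214 and 46700806 reads per library fell on these genes. In the siPHF13 + TGFβ group the replicates of a gene differed most, with a median absolute log2 difference of 0.15, against 0.07 in siControl, 0.10 in siPHF13 and 0.11 in siControl + TGFβ. The fit gives each gene a common variance over all groups, so the SEs below do not show this unequal spread. The labels do not say that replicates came from separate cultures, so p-values measure only the spread between these libraries. All 8 ductal epithelial markers looked up (*KRT7*, *KRT8*, *KRT18*, *KRT19*, *EPCAM*, *CDH1*, *MUC1*, *SOX9*) are in the table, and of 19 markers of acinar, islet, fibroblast, leukocyte and endothelial cells the table lists only *CD68*. In bulk RNA, fewer cells of a state and less RNA per cell cannot be told apart. *PHF13*, on the plus strand of chr1:6673791-6684090 (GRCh37), had 1585.9 and 1709.5 normalized counts with siControl + TGFβ and 512.8 and 529.4 with siPHF13 + TGFβ. Depleted cells kept 31.6% of the control mean. The effect of -1.66 on the log2 scale (SE 0.09, adjusted p = 1.3e-08) differed from the change without TGFβ by only 0.02 (SE 0.13).

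Upon depletion in TGFβ-treated cells, 1173 genes were higher and 1553 lower, which is 8.81% and 11.7% of the 13307 tested and 20.5% together. Without TGFβ the same thresholds called 1058 genes higher (7.95%) and 1390 lower (10.4%). No library is shared by these comparisons. They had 748 rises and 1075 falls in common, and 0 genes were called in opposite directions. A further 425 rises and 478 falls were called with TGFβ alone. A call under one condition and not the other does not show that the effects differ, and the difference itself passed in only 1 of those 425 and 11 of those 478 genes. Across all genes the difference was called above 0 for 8 genes (0.0601%) and below 0 for 33 (0.248%). Called both with TGFβ and by the difference in the same direction were 1 rise and 16 falls, which is 0.00751% and 0.12% of the 13307 genes.

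**Figure D1:**
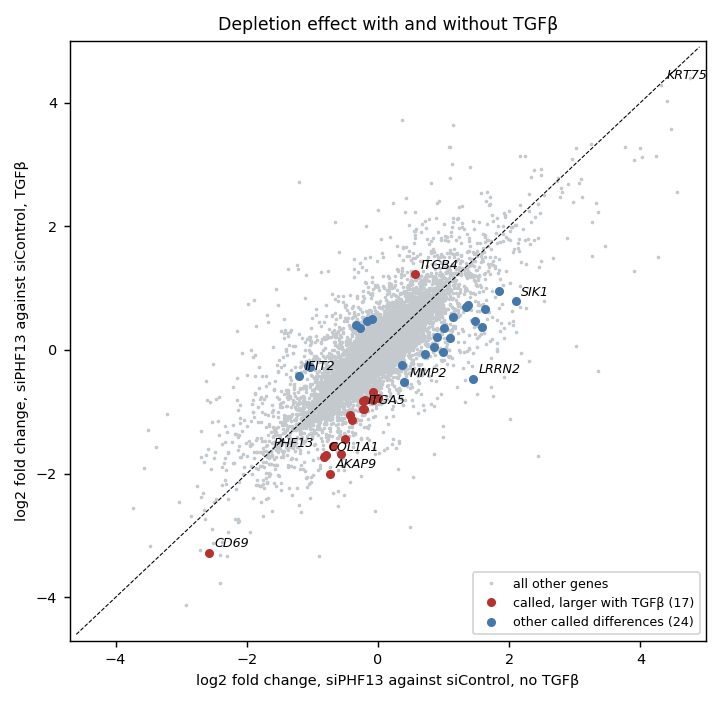
Log2 fold change upon PHF13 depletion without TGFβ (horizontal) and with TGFβ (vertical) for 13307 genes, grey points, with the line of equal effects dashed. The 17 genes called with TGFβ and by the difference in the same direction are red and the other 24 called differences blue. These were chosen for their distance from the line.

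The 17 genes changed more with TGFβ held genes of matrix, integrin and growth factor biology that siControl cells expressed at higher levels with TGFβ. The difference equals the TGFβ response of depleted cells minus that of siControl cells. Choosing differences below 0 therefore favours genes with a higher siControl level with TGFβ, and choosing those above 0 favours the reverse. The higher level in treated controls is thus not a separate result. *COL1A1* encodes the alpha-1 chain of type I collagen, and lies on the minus strand of chr17:48261462-48278993 (GRCh37). It had 3345.2 and 3432.8 normalized counts in siControl, 1921.7 and 1887.1 in siPHF13, 16413.9 and 15333.8 in siControl + TGFβ, and 4908.6 and 4691.2 in siPHF13 + TGFβ. Both depleted libraries lay far below both controls with and without TGFβ, with 30.2% of the control level left with TGFβ and 56.2% without. The log2 fold changes were -1.72 with TGFβ and -0.83 without (SE 0.06 each), a difference of -0.89 (SE 0.09, adjusted p = 0.000358).

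Among integrins, the receptors by which cells hold matrix, the largest called difference was that of *ITGA5*, the alpha chain of a fibronectin receptor (minus strand of chr12:54789045-54813050, GRCh37). It had 35065.8 and 34917.7 normalized counts in siControl, 28780.2 and 30649.9 in siPHF13, 100453.9 and 99103.7 in siControl + TGFβ, and 53078.4 and 49443.3 in siPHF13 + TGFβ. With TGFβ, depleted cells had 51.4% of the control level and without it 84.9%, so that the fall without TGFβ was too small for the fold threshold. The effects were -0.96 and -0.24 (SE 0.06 each), a difference of -0.73 (SE 0.09, adjusted p = 0.0015). *ITGAV*, whose chain pairs with several beta chains and binds latent TGFβ among other ligands, had 74932.4 and 81615.1 normalized counts in siControl + TGFβ and 44068.6 and 43760.8 in siPHF13 + TGFβ. Without TGFβ it had 38114.2 and 39034.4 in siControl and 32682.2 and 33079.5 in siPHF13. Its effects were -0.83 and -0.23, a difference of -0.60 (SE 0.09, adjusted p = 0.00631), and this call was lost without siControl replicate 1 (-0.585), siControl replicate 2 (-0.619) or siControl + TGFβ replicate 2 (-0.541), and also after correction for transcript length and GC content. In the other direction, *ITGB4*, the beta chain of the hemidesmosome integrin, had 1715.2 and 1587.1 normalized counts in siControl + TGFβ and 4168.1 and 3584.3 in siPHF13 + TGFβ. It had 3454.3 and 3469.8 in siControl and 4764.4 and 5495.5 in siPHF13. It is the only gene called here both as higher with TGFβ and by a difference above 0 (DESeq2 on whole reads called 3), with effects of 1.23 and 0.56 and a difference of 0.66 (SE 0.12, adjusted p = 0.0326), and its call remained in only 2 of the 8 fits that each left out a library, those without siPHF13 replicate 2 (0.767) or siPHF13 + TGFβ replicate 2 (0.773).

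The promoters of *ITGA5* and *ITGAV* are shown because these integrins fell together with TGFβ and both windows hold the letters CAGAC, the core that SMAD proteins bind. Each run is the 250 bases before the RefSeq start farthest upstream (GRCh38.p14), 5′ to 3′ along the gene, with CAGAC or its reverse complement GTCTG in capitals.
ITGA5, minus strand of chr12:54419267-54419516: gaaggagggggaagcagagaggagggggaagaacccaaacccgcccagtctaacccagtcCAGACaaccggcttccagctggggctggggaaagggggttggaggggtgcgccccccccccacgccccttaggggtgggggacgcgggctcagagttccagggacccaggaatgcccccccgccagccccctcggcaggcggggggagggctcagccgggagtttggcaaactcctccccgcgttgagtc
ITGAV, plus strand of chr2:186589806-186590055: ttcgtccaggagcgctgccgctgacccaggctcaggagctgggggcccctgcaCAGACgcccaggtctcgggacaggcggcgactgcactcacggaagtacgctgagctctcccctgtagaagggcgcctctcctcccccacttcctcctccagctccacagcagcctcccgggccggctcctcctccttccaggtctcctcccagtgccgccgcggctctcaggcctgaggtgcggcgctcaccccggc
The match begins 190 bases before the start of *ITGA5* and 197 before that of *ITGAV*. Of the 41 genes with a called difference, 29 matched a promoter by symbol, and 17 of these (58.6%) held either run of letters on 1 strand or the other, against 37.9% of 27305 promoters of the same length. The AP-1 letters TGANTCA, the same on both strands, were in 0 of the 29 windows and in 6.57% of all. These are matches of letters and not binding sites. The 27305 promoters are not limited to the 13307 measured genes, so the shares compare unlike sets. Genes that matched no promoter by symbol, among them *COL1A1*, *MMP2*, *GOLGA4* and *ITGB4*, were not read. Of the 16 genes that fell more with TGFβ, 10 were read, and 7 of these (70%) held CAGAC or GTCTG. *PMEPA1*, *CEP290* and *CENPE* were read and held neither. The windows shown were picked for holding the letters, and whether the letters bear on the falls was not tested.

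*PMEPA1*, a membrane protein that TGFβ raises in many cells and that holds back SMAD signalling, had 18006.2 and 16900.2 normalized counts in siControl + TGFβ and 9164.1 and 8861.7 in siPHF13 + TGFβ. Without TGFβ it had 3833.7 and 3745.5 in siControl and 3250.5 and 3279.9 in siPHF13. The groups did not overlap in either state, but 51.6% of the control level was left with TGFβ and 86.2% without. Its difference was -0.74 (SE 0.08, adjusted p = 0.00118). *SLC26A2*, a sulfate transporter needed to sulfate matrix proteoglycans, had 21767.6 and 25555.6 normalized counts in siControl + TGFβ and 13511.4 and 14001.4 in siPHF13 + TGFβ. Without TGFβ its 4 libraries overlapped, with 10077.5 and 10079.6 in siControl and 10487.6 and 9719.5 in siPHF13. Its effects were -0.78 with TGFβ and 0.00 without (SE 0.07 each). The difference of -0.78 (SE 0.10, adjusted p = 0.00345) was no longer called without siControl replicate 2, although its value there was -0.781. *SPOCK1*, a secreted proteoglycan, had 8318.5 and 8270.6 normalized counts in siControl + TGFβ and 4983.1 and 4497.7 in siPHF13 + TGFβ, with effects of -0.81 and -0.07. Its call was kept in 4 of 8 fits without a library.

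Secreted factors were also among them. *ANGPTL4*, an inhibitor of lipoprotein lipase, had 22023.1 and 19715.4 normalized counts in siControl + TGFβ and 9063.7 and 10051.3 in siPHF13 + TGFβ, with effects of -1.13 with and -0.40 without TGFβ. *PDGFB*, a growth factor for mesenchymal cells, had 9797.6 and 8725.3 against 5136.4 and 5440, with effects of -0.81 and -0.20. In both genes the depleted libraries lay below both controls with TGFβ. Their differences of -0.72 and -0.61 were called in 5 and 2 of the 8 fits without a library. *CBFB*, the partner of RUNX transcription factors, and *PGM2L1*, a sugar phosphate enzyme, are outside the rule for naming genes and are given because they complete the group. *CBFB* had 9847.2 and 10479 normalized counts in siControl + TGFβ and 4895.7 and 4952 in siPHF13 + TGFβ (effects -1.04 and -0.43), and *PGM2L1* had 4927.9 and 5135.6 against 3087.5 and 3197.4 (effects -0.68 and -0.07). Their differences were called in 5 (*CBFB*) and 2 (*PGM2L1*) of the 8 fits without a library, and that of *PGM2L1* was lost after correction for length and GC content. *CD69*, a lectin known from activated lymphocytes, was also among the genes with the largest falls. It had 2522.7 and 2609.5 normalized counts in siControl + TGFβ and 261.2 and 265.6 in siPHF13 + TGFβ, against 1358.2 and 1294.7 and then 226.8 and 218 without TGFβ. The depleted cells were thus near the same level in both states, with effects of -3.28 and -2.57, and the difference of -0.71 was called in 2 of 8 fits without a library.

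The other 5 of these 16 falling genes have long transcripts of low GC content, which they share with *PGM2L1*, *SLC26A2* and *ITGAV* above. Some of the 5 encode large coiled-coil or scaffold proteins. *AKAP9*, which ties protein kinase A to the Golgi and the centrosome, had the largest difference of the 17. It had 3541.6 and 3095.9 normalized counts in siControl, 1905.7 and 2103.1 in siPHF13, 4110.7 and 3916.8 in siControl + TGFβ, and 973.7 and 1027 in siPHF13 + TGFβ. Depletion thus left 24.9% of the control level with TGFβ and 60.4% without. The effects were -2.00 and -0.73 (SE 0.08 each), a difference of -1.28 (SE 0.12, adjusted p = 0.000203). *CEP290*, a protein of the cilium base, had 1802.6 and 1766 normalized counts in siControl + TGFβ and 551.6 and 564 in siPHF13 + TGFβ, with effects of -1.68 and -0.57. *GOLGA4*, a golgin that tethers vesicles, had 8874.8 and 8727.3 against 2651.3 and 2757.5, with effects of -1.70 and -0.80. *ANKRD12*, an ankyrin repeat protein, had 3093 and 3178.2 against 1198.3 and 1101.1, with effects of -1.45 and -0.51. In all these the depleted libraries lay below both controls, and their level with TGFβ was lower than in depleted cells without it. *CENPE*, the kinesin of the kinetochore, had 2187.4 and 2037.6 in siControl + TGFβ and 647.7 and 792.1 in siPHF13 + TGFβ, with effects of -1.56 and -0.69, and it was called in 3 of 8 fits without a library.

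**Figure D2:**
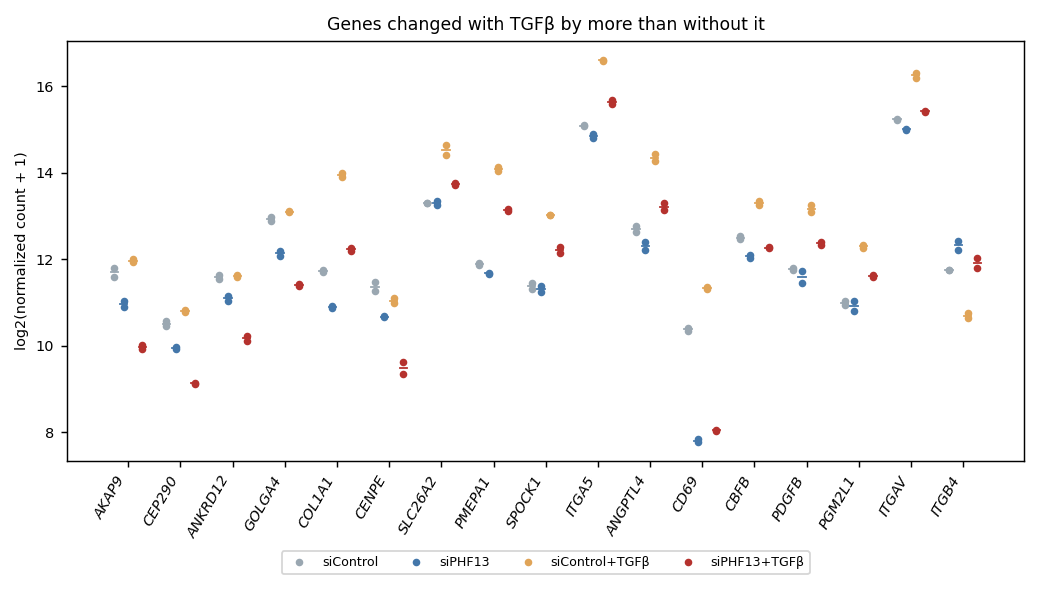
Levels in log2(normalized count + 1) of the 17 genes called with TGFβ and by the difference in the same direction, with a point for each of the 8 libraries and a bar at each group mean. In the 16 genes up to *ITGAV* the siPHF13 + TGFβ points (red) lie below siControl + TGFβ (orange), and in *ITGB4* they lie above it.

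The lengths of these 5 transcripts are 13915 bases for *AKAP9*, 13334 for *CEP290*, 11284 for *ANKRD12*, 8742 for *CENPE* and 7908 for *GOLGA4*, taking the longest annotated transcript, against a median of 3874 bases over all genes. *PGM2L1* (8477 bases), *SLC26A2* (8054) and *ITGAV* (7951) are longer than *GOLGA4*. Transcript length moved with the depletion effect in the whole table. In the decile of genes with the shortest transcripts (252 to 1650 bases) the median effect with TGFβ was 0.18, and in the decile with the longest (from 8036 bases) it was -0.17. The share of genes called lower went from 5.25% to 19.1% between these deciles, and the share called higher from 13.7% to 4.80%. Without TGFβ the medians were 0.10 and -0.10. By library, the median level of the longest decile minus that of the shortest, each centred on the mean over all libraries, was 0.16 and 0.20 in siControl + TGFβ and -0.05 and -0.31 in siPHF13 + TGFβ. It was 0.08 and 0.09 in siControl and -0.17 and -0.05 in siPHF13. The replicates of siPHF13 + TGFβ thus stand apart in this measure. After each library was corrected for length and GC content, 1098 genes were higher and 1466 lower with TGFβ, and these 5 genes and *SLC26A2* were still called with TGFβ and by the difference. *ITGAV*, *PGM2L1* and *UBE2T* lost the call of the difference under this correction. What gave the relation to length was not tested.

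Another set of called differences belongs to genes that depletion raised without TGFβ and raised less, or did not change past the thresholds, with it. *SIK1*, a salt-inducible kinase, had 1017.7 and 958.7 normalized counts in siControl, 4398.3 and 4088.8 in siPHF13, 4526.9 and 4453.7 in siControl + TGFβ, and 7863.3 and 7663.4 in siPHF13 + TGFβ. The effect of 2.10 without TGFβ was 0.79 with it (SE 0.07 each), a difference of -1.31 (SE 0.09, adjusted p = 2.85e-05) that was called in all 8 fits without a library. Like *SIK1*, another 4 genes rose in both states and by less with TGFβ. They are *LEPR*, the leptin receptor (1.63 without and 0.67 with TGFβ), *THBD*, which encodes thrombomodulin (1.84 and 0.95), *PODXL*, a sialomucin (1.34 and 0.69), and *ADAMTS15*, a matrix protease (1.37 and 0.73). *SIK1*, *LEPR*, *THBD* and *PODXL* are outside the naming rule and were added after their values were seen. The calls of *LEPR*, *THBD*, *PODXL* and *ADAMTS15* remained in 2, 3, 2 and 4 of the 8 fits without a library.

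In 10 genes the rise was called without TGFβ only. *ADAM19*, a membrane metalloprotease, had 1619 and 1565.1 normalized counts in siControl, 4634.1 and 4911.5 in siPHF13, 8412.3 and 8018.6 in siControl + TGFβ, and 11376.1 and 9879 in siPHF13 + TGFβ. Its effects were 1.58 without and 0.37 with TGFβ, a difference of -1.21 (SE 0.10, adjusted p = 0.000117). *ULK1*, a kinase that starts autophagy, had 4988 and 4791.6 in siControl and 11039.6 and 9838.8 in siPHF13, but 15357.3 and 14238.3 against 18372.5 and 15646.3 with TGFβ. Its effects were 1.09 and 0.20, and like that of *ADAM19* its difference was called in all 8 fits without a library. *LRRN2*, a leucine-rich repeat membrane protein, had 265.2 and 290.1 in siControl + TGFβ and 225.6 and 179 in siPHF13 + TGFβ, after 37 and 24.3 in siControl and 96.5 and 73 in siPHF13. Its difference of -1.92 (SE 0.36) was the largest of all in size but was called in only 2 of the 8 fits. *DNM1*, a dynamin, had effects of 0.99 without and -0.03 with TGFβ, and *COL5A1*, a fibrillar collagen chain, 1.48 and 0.47. Their differences were called in 1 (*DNM1*) and 3 (*COL5A1*) of the 8 fits.

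The remaining 5 of these 10 are matrix, signalling and cell death genes. *LTBP2*, a latent TGFβ binding protein of microfibrils, had effects of 0.89 without and 0.21 with TGFβ. *CTGF*, a matricellular protein, had 1.01 and 0.35, and *TGFBI*, an adhesion protein of the matrix, 1.14 and 0.54. *EPHB2*, an ephrin receptor, had 0.72 and -0.07, with 12959.7 and 12685.2 normalized counts in siControl + TGFβ and 12908 and 11567.3 in siPHF13 + TGFβ, which overlap. *BMF*, a death-promoting member of the BCL2 family, had 0.85 and 0.05. Their calls remained in 3 (*LTBP2*), 5 (*CTGF*), 3 (*TGFBI*), 7 (*EPHB2*) and 2 (*BMF*) of 8 fits without a library. The gelatinase gene *MMP2* passed the fold threshold in neither state, with 0.40 without TGFβ and -0.52 with it. It had 5366.4 and 5576.3 normalized counts in siControl and 6666.1 and 7826.5 in siPHF13, and then 21622.1 and 19682.5 in siControl + TGFβ and 15442.7 and 13440.3 in siPHF13 + TGFβ. The depleted libraries thus lay above the controls without TGFβ and below them with it, and the difference of -0.92 (SE 0.12, adjusted p = 0.00298) was called in all 8 fits. *ZNF185*, which is outside the naming rule, also passed in neither state (0.37 and -0.24).

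Differences above 0 were found in 8 genes. The interferon-induced genes *IFIT2* and *IFIT3* and the TNF receptor gene *TNFRSF1B* fell without TGFβ only. *IFIT2* had 4612.4 and 5152 normalized counts in siControl and 1880.9 and 2381.3 in siPHF13, but 2098 and 2034.5 in siControl + TGFβ and 1517.8 and 1571.8 in siPHF13 + TGFβ. Its effects were -1.20 without and -0.42 with TGFβ, those of *IFIT3* -1.04 and -0.28, and those of *TNFRSF1B* -1.07 and -0.26. In these genes the TGFβ-treated controls lay well below the untreated ones, and each call remained in 3 of 8 fits without a library. Another 4 belong to the cell cycle and DNA repair and were called in neither state. *ORC1*, a subunit of the origin recognition complex, had 747.1 and 778.6 in siControl + TGFβ and 1040.7 and 1071.3 in siPHF13 + TGFβ, against 1184.6 and 1141.6 and then 1084.2 and 981.5 without TGFβ. *NEK2*, a centrosomal kinase, had effects of 0.36 with and -0.28 without TGFβ. *FANCD2*, of the Fanconi repair pathway, and *UBE2T*, its ubiquitin-conjugating enzyme, are outside the naming rule and had 0.40 and 0.50 with TGFβ and -0.34 and -0.09 without. These 4 calls remained in 1 (*ORC1*, *UBE2T*) or 2 (*NEK2*, *FANCD2*) of the 8 fits.

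Of the 41 called differences, 11 remained in all 8 fits that left out a library: *SIK1*, *AKAP9*, *ADAM19*, *CEP290*, *ANKRD12*, *MMP2*, *GOLGA4*, *ULK1*, *COL1A1*, *PMEPA1* and *ITGA5*. Without siControl replicates 1 and 2, 19 and 12 of the 41 calls remained, and without siPHF13 replicates 1 and 2, 20 and 23. Without siControl + TGFβ replicates 1 and 2, 16 and 18 remained, and without siPHF13 + TGFβ replicates 1 and 2, 38 and 32. Each such fit represents 1 group by a lone library that is taken to vary like the others. The number of differences below 0 went from 12 without siControl replicate 2 to 75 without siPHF13 + TGFβ replicate 1, and that above 0 from 0 to 36.

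The largest rises upon depletion in TGFβ-treated cells were mostly in genes with low levels in the controls. The ranking takes only genes that are called, average 100 normalized counts or more over the 8 libraries and do not overlap between the treated groups, so that larger changes of genes with lower counts are not among them. *KRT75*, a hair follicle keratin, had 31.3 and 21.6 normalized counts in siControl + TGFβ and 564.6 and 492.8 in siPHF13 + TGFβ, a log2 fold change of 4.29 (SE 0.22, adjusted p = 6.62e-09). *CHRNB2*, a nicotinic receptor subunit, had 18.3 and 25.7 against 391.9 and 351.3 (4.03, SE 0.25). *VGF* and *SCG2* encode granule proteins of neuroendocrine cells. *VGF* had 659.8 and 525.6 against 6322.8 and 5524.7 (3.33, SE 0.10). *SCG2* had 88.4 and 137.8 against 1005 and 1135.7 (3.26, SE 0.18). The homeobox gene *NKX6-2* had 92.7 and 113.1 in siControl + TGFβ and 849.6 and 967.3 in siPHF13 + TGFβ, with 283.6 and 246.9 in siControl and 1323.9 and 1078.2 in siPHF13. Its effects were 3.13 with and 2.17 without TGFβ, and the difference of 0.96 (SE 0.21, adjusted p = 0.081) was not called. It was called by DESeq2 on whole reads and without siPHF13 + TGFβ replicate 1. The other 5 of the 10 largest under these limits were *CLDN6*, a tight junction claudin (3.28), *PADI1*, a protein citrullinating enzyme (3.06), *RUNDC3A* (2.93), *COL6A3*, a type VI collagen chain (2.83), and *SBK3* (2.79). Their depleted libraries held between 219.4 (*COL6A3*) and 611.2 (*PADI1*) normalized counts, and no control library with TGFβ over 102.4 (*RUNDC3A*).

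Apart from *CD69*, the largest falls under the same limits were those of *DLL1*, a Notch ligand (-2.90, SE 0.25), and *TSPAN18*, a tetraspanin (-2.76, SE 0.13). *DLL1* had 224.2 and 256.1 normalized counts in siControl + TGFβ and 28.1 and 34.6 in siPHF13 + TGFβ, and *TSPAN18* had 1018.8 and 838.3 against 132.8 and 138.6. *ADAMTS7*, a matrix protease, had 485.1 and 492.7 in siControl + TGFβ and 88.5 and 86.6 in siPHF13 + TGFβ, but 93.9 and 87.4 in siControl and 22.9 and 9.9 in siPHF13. The depleted cells with TGFβ were thus at the level of the untreated controls, and the effects were -2.47 with and -2.51 without TGFβ, a difference of 0.04 (SE 0.44) that was not called. *PIK3IP1*, an inhibitor of PI3 kinase, had 921.8 and 1019.3 against 181.4 and 220.4 with TGFβ and 258.9 and 277.5 against 112.4 and 80.9 without, with effects of -2.27 and -1.48. Its difference of -0.79 (SE 0.25) was not called. The antiviral genes *SAMD9L* (-2.40) and *USP18* (-2.31), with *TPSG1*, a mast cell type protease (-2.58), *JAKMIP3* (-2.35) and *GLIPR2* (-2.25), complete the 10. Without TGFβ the effects were -2.54 for *DLL1*, -2.12 for *TSPAN18*, -2.48 for *SAMD9L* and -2.67 for *USP18*. They were -2.65 for *TPSG1*, -1.31 for *JAKMIP3* and -2.16 for *GLIPR2*, and none of the differences of these genes was called.

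**Figure D3:**
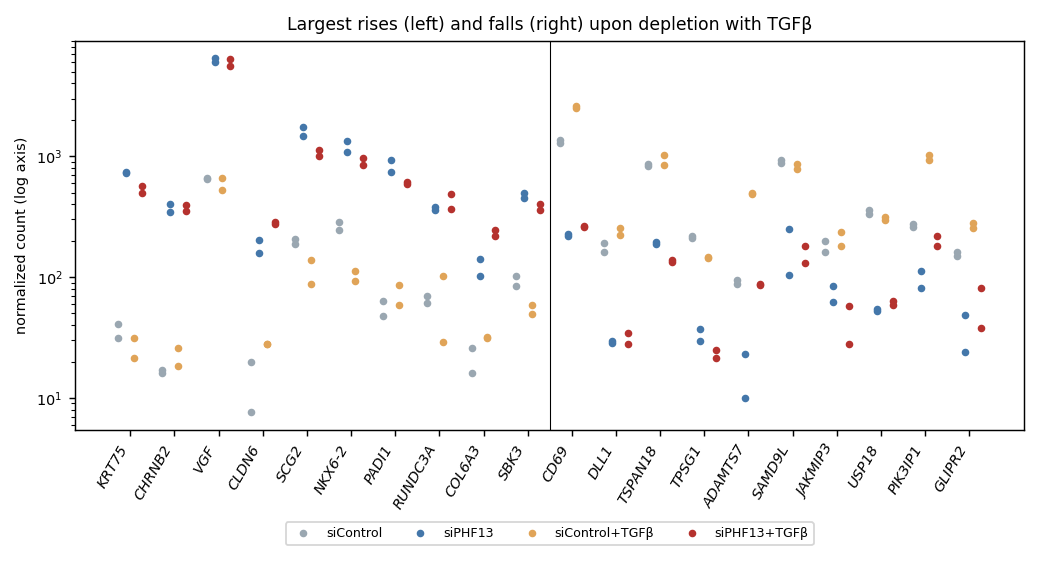
Normalized counts on a log axis, with a point for each of the 8 libraries, of the 10 largest rises (left of the line) and the 10 largest falls (right) upon depletion with TGFβ. The siPHF13 + TGFβ points (red) do not overlap with siControl + TGFβ (orange), which the choice of these genes required.

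The effect with TGFβ was then read across 36 lists of pathway and cell state genes, with the shares called over all genes (8.81% higher and 11.7% lower) and the median over all genes (0.00) as background. Without TGFβ the shares over all genes were 7.95% higher and 10.4% lower. The difference was called above 0 in 0.0601% of all genes and below 0 in 0.248%. Lists were written with earlier results of these data known, so their counts are descriptions. In TGFβ signalling itself, falls were most frequent among inhibitors. Of 12 measured feedback inhibitors 0 were called higher and 6 lower, with a median of -0.58 (-0.43 without TGFβ). Besides *PMEPA1* these were *FST*, which binds activin (-1.39), *SKIL*, a SMAD corepressor (-0.98), *SMURF1* (-0.78), *TGIF2* (-0.72) and *SMAD6* (-0.70). *SKIL* had 7927.2 and 8615.2 normalized counts in siControl + TGFβ and 4263.1 and 4103.1 in siPHF13 + TGFβ, with no overlap. Of 17 receptors and SMADs 0 were called higher and 6 lower, led by *BMPR1B* (-1.24) and *TGFBR1*, the type I TGFβ receptor (-1.10), with *SMAD2* at -0.79. Without TGFβ, 1 of the receptors and SMADs was called higher and 4 lower. The ligands *TGFB3* (-1.31) and *BMP2* (-1.14) fell, while *TGFB2* (0.84), *INHBA* (0.70) and the latency protein *LTBP1* (1.31) rose.

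Of 32 measured TGFβ target genes 1 was called higher and 11 lower with TGFβ, and 7 higher and 5 lower without it, with medians of -0.13 and 0.05. The difference was called, below 0, in 9 of the 32, all named above, against 33 of 13307 genes (0.248%). Choosing differences below 0 favours genes with a higher siControl level with TGFβ, as 32 of the 33 had. The share among TGFβ targets is thus not a separate result. The largest fall was that of *SNAI1*, a transcription factor that starts EMT, with 1768.1 and 1267.2 normalized counts in siControl + TGFβ and 401.6 and 351.3 in siPHF13 + TGFβ. Its effects were -1.99 with and -1.66 without TGFβ. *FN1* (-1.27), the growth factor *PDGFA* (-0.91) and the cell cycle inhibitor *CDKN1A* (-1.36) fell as well, and *IL11* rose (0.75). Of 17 EMT transcription factors 0 were called higher and 4 lower, namely *SNAI1*, *PRRX1* (-1.81), *SOX9* (-0.62) and *FOXC1* (-0.61). Without TGFβ, 0 of these factors were called higher and 6 lower.

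Adhesion and matrix lists moved both ways. Of 17 integrins 3 were called higher and 5 lower with TGFβ. Beside the genes above, the collagen receptor chain *ITGA2* (-0.73), *ITGAE* (-0.65) and *ITGB8* (-0.64) fell, and *ITGB3* (1.13) and *ITGA10* (1.18) rose. Without TGFβ 2 were called higher and 1 lower. The list median was -0.01 with TGFβ and 0.40 without, and the first turned above 0 under 4 of 7 alternatives, to at most 0.13. Of 25 collagens 3 were called higher and 7 lower, among them *COL4A1* of basement membranes (-2.10) and *COL7A1* of anchoring fibrils (-1.13). Of 28 junction genes 3 were called higher, led by *CLDN3* (2.32), and 5 lower, among them the nectin gene *PVRL1* (-1.41) and the desmosome gene *DSP* (-1.10). Of 24 contractile genes 3 were called higher and 6 lower, led by *CALD1* (-1.49), with the tropomyosin genes *TPM1* (-0.76) and *TPM4* (1.17) going opposite ways. Enzymes that crosslink or fold collagen were called higher in 5 of 19 and lower in 2. Among the rises were *TGM2* (1.77), *LOX* (1.50) and the collagen chaperone gene *SERPINH1* (1.19). Without TGFβ, 5 collagens were called higher and 8 lower, and 3 junction genes higher and 7 lower. For contractile genes the counts without TGFβ were 3 and 3, and for the crosslinking and folding enzymes 5 and 2.

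Cell cycle lists had higher medians with TGFβ than without. Of 39 replication genes 34 lay above 0 with TGFβ and 9 were called higher and 0 lower, with a median of 0.41 against 0.03 without TGFβ. The highest were *RFC2*, of the clamp loader (0.82), *POLA2*, of the primase complex (0.82), and *POLD1*, a replicative polymerase (0.79). *E2F1*, which drives entry into S phase, had 981.1 and 984.3 normalized counts in siControl + TGFβ and 1543.7 and 1784.5 in siPHF13 + TGFβ, an effect of 0.76 against 0.29 without TGFβ. The median of 43 mitotic genes was 0.21 with TGFβ and -0.15 without, and 2 were called higher (*KIF2C* 0.67, *MAD2L1* 0.69) and 3 lower (*CENPE*, *CENPF* -0.83, *ANLN* -0.72). The difference was called for *ORC1* among the replication genes and for *CENPE* and *NEK2*, in opposite directions, among the mitotic genes.

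Many interferon-stimulated genes, which cells use against viruses, were called lower in each state. Of 50 measured 0 were called higher and 21 lower with TGFβ, and 28 lower without, with medians of -0.40 and -0.96, and the difference was called in *IFIT2* and *IFIT3*. The largest falls with TGFβ were those of the sensor *TLR3* (-3.17), *TRIM22* (-2.60) and *SAMD9L*. List genes were named without the limits on mean count and overlap used to rank the largest rises and falls. *TLR3* and *TRIM22*, and further below *SCG3*, *SNAP25* and *UNC5B*, did not meet those limits. Of 20 genes of MHC class I presentation 7 fell, led by *HLA-F* (-1.66), and of 35 cytokine and NF-kB genes 14 fell, led by *CXCL16* (-2.10), *BIRC3* (-1.63) and *IL15* (-1.61), while 4 rose. Without TGFβ, 10 of the MHC class I genes fell and 0 rose, and 17 of the cytokine and NF-kB genes fell and 3 rose.

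Lists of metabolism and secretion had medians on the same side of 0 in both states. Of 31 genes of cholesterol and fatty acid synthesis 0 were called higher and 10 lower, led by *ELOVL6* (-2.19), the squalene epoxidase gene *SQLE* (-1.61) and *MSMO1* (-1.53), with medians of -0.39 with and -0.35 without TGFβ. Of 20 NRF2 target genes 8 were called lower and 2 higher. The largest fall was that of the cystine transporter gene *SLC7A11*, with 5334.4 and 5513.1 normalized counts in siControl + TGFβ and 1500.5 and 1361.9 in siPHF13 + TGFβ (-1.92). Of 17 neuroendocrine secretory genes 9 were called higher and 2 lower, with a median of 0.86 (1.14 without TGFβ), and beside *VGF* and *SCG2* these included *SCG3* (3.57), *SNAP25* (3.09) and *SYP* (2.01). Of 62 ribosomal protein genes, which have short transcripts, 58 lay above 0 with a median of 0.31, and only *RPL28* (0.68) and *RPL11* (0.60) were called.

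**Figure D4:**
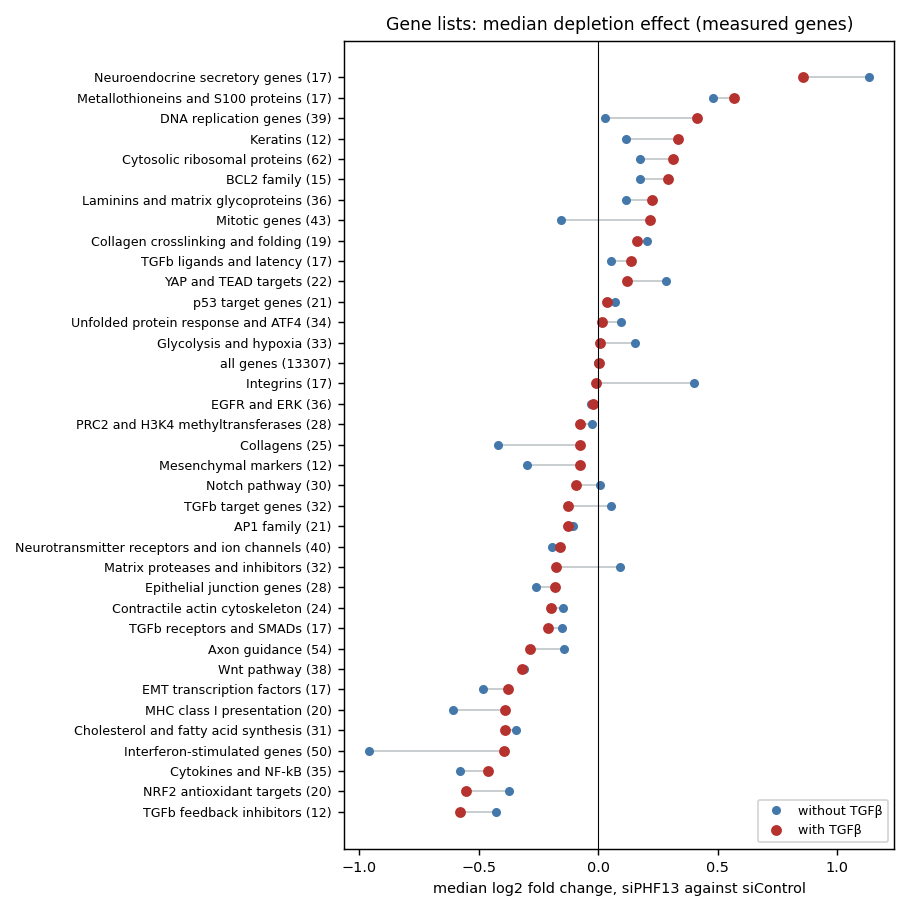
Median log2 fold change upon depletion with TGFβ (red) and without it (blue) for 36 gene lists and for all genes, with the number of measured genes in brackets. Interferon-stimulated genes (-0.40 and -0.96), replication genes (0.41 and 0.03), mitotic genes (0.21 and -0.15) and integrins (-0.01 and 0.40) are the lists whose medians lie farthest apart.

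The other lists gave the following counts. Called higher and lower with TGFβ were 4 and 3 of 30 Notch pathway genes, 3 and 9 of 38 Wnt genes, 3 and 15 of 54 axon guidance genes, 5 and 1 of 22 YAP targets, 5 and 7 of 36 EGFR and ERK genes and 1 and 3 of 21 AP-1 genes. They were 5 and 0 of 12 keratins, 2 and 2 of 12 mesenchymal markers, 4 and 6 of 36 laminins and glycoproteins, 3 and 4 of 32 matrix proteases and inhibitors and 7 and 1 of 17 metallothioneins and S100 proteins. They were 1 and 1 of 15 BCL2 family genes, 0 and 5 of 21 p53 targets, 4 and 11 of 40 neurotransmitter receptors and channels, 1 and 3 of 28 PRC2 and H3K4 methylation genes, 2 and 5 of 34 stress response genes and 3 and 2 of 33 glycolysis and hypoxia genes. Examples are the axon guidance receptor *UNC5B* (-2.46) and ligand *SEMA7A* (1.59), *LEF1* of the Wnt pathway (-0.90), the YAP target *ANKRD1* (1.15), *EGFR* (-0.94) and the cyclin gene *CCND1*, with 39541 and 41151.6 normalized counts in siControl + TGFβ and 18402.8 and 17215.2 in siPHF13 + TGFβ (-1.18).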

How the data were processed

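PolyA RNA of Panc-1 cells was sequenced in 8 libraries, 2 per condition. Per the labels and the study's methods, the authors trimmed reads with Trim Galore 0.4.1, mapped them to hg19 with STAR 2.7.0, counted reads per gene with HTSeq 0.12.4 and normalized with DESeq2. The strand setting of the counting is not given in the sources used here, so genes that overlap on opposite strands cannot be told apart. The deposited values are a signal per gene and library, gene counts divided by the library's size factor. The authors' tables of their own comparisons hold fold changes and p-values and were not used. Dividing each library by the worth of 1 read gave whole reads for 100% of values (at most 2.01% before), hence the depth. Groups and replicate numbers were taken from the sample labels.

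Effects were fitted on log2(normalized count + 1) with limma 3.58.1 (R 4.3.3, trended prior variance, two-sided) over the 8 libraries, with p-values adjusted over 13307 genes. A minimum of 10 normalized counts in 2 libraries removed 0 genes. The contrasts were depletion with TGFβ, depletion without TGFβ, and the former minus the latter. Alternatives were a pseudocount of 5, no minimum, a minimum mean of 100, TMM factors, a replicate block, other fold thresholds, each library left out, a correction for length and GC content with splines of 5 degrees of freedom (98.6% of genes had both), a fit of the 4 treated libraries, and edgeR 4.0.16 and DESeq2 1.42.0 on whole reads. Count models with all 8 libraries were added after seeing the data. The step of siPHF13 replicate 1 was 0.995, near 1, but division still raised its whole values from 1.72% to 100%. The procedure was also run on simulated counts drawn with the same spread in every group. Those counts lack the unequal spread of these libraries, so they cannot show how it affects the calls. Genes named are *PHF13*, the 10 largest rises and falls with TGFβ (mean of at least 100 normalized counts, groups not overlapping), the 10 largest in each direction among genes called with TGFβ and by the difference, the 5 largest in each direction among differences called with depletion without TGFβ only, and up to 3 rises and falls and each called difference per list, beside members whose role a sentence needs. The members and lists were chosen with earlier results of these data known. Gene positions and lengths are from GENCODE on GRCh37, and promoters from RefSeq on GRCh38.p14. A gene among the TGFβ targets is not reported here.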

Additional observations from a re-analysis of the deposited data

Results flagged for a closer look

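For 41 genes the depletion effect with TGFβ differed from that without it by the test of the difference (limma, adjusted over 13307 genes). Values are log2 effects with TGFβ minus those without, with 2 libraries per condition. Falls that were larger with TGFβ gave -1.28 for *AKAP9*, -1.10 for *CEP290*, -0.942 for *ANKRD12*, -0.906 for *GOLGA4*, -0.894 for *COL1A1*, -0.864 for *CENPE*, -0.781 for *SLC26A2* and -0.738 for *PMEPA1*. They gave -0.734 for *SPOCK1*, -0.725 for *ITGA5*, -0.722 for *ANGPTL4*, -0.708 for *CD69*, -0.612 for *CBFB*, -0.611 for *PDGFB*, -0.604 for *PGM2L1* and -0.602 for *ITGAV*. The rise of *ITGB4* was larger with TGFβ, by 0.664.

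Rises that were called without TGFβ and were smaller with it gave -1.92 for *LRRN2*, -1.31 for *SIK1*, -1.21 for *ADAM19*, -1.02 for *DNM1*, -1.01 for *COL5A1*, -0.959 for *LEPR*, -0.895 for *ULK1* and -0.885 for *THBD*. They gave -0.801 for *BMF*, -0.785 for *EPHB2*, -0.682 for *LTBP2*, -0.658 for *CTGF*, -0.647 for *PODXL*, -0.641 for *ADAMTS15* and -0.609 for *TGFBI*. *MMP2* (-0.919) and *ZNF185* (-0.611) passed the fold threshold in neither state.

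Falls that were called without TGFβ only gave 0.812 for *TNFRSF1B*, 0.784 for *IFIT2* and 0.759 for *IFIT3*. The cell cycle and repair genes gave 0.734 for *FANCD2*, 0.643 for *NEK2*, 0.641 for *ORC1* and 0.584 for *UBE2T*. The difference is the same quantity as the TGFβ response of depleted cells minus that of control cells.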

How the results depend on the processing

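With 2 libraries per condition, the number of genes that differ between the states depended on the libraries. When each library was left out in turn, differences above 0 ranged from 0 to 36 and those below 0 from 12 to 75, and the genes called with TGFβ and by the difference ranged from 0 to 15 higher and from 8 to 32 lower. The highest of each came without siPHF13 + TGFβ replicate 1. These 8 fits kept 12 to 38 of the 41 differences. In the same fits the numbers of genes called with TGFβ stayed within 1.5 times of 1173 higher and 1553 lower.

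Without a fold threshold 3262 genes were higher and 3450 lower with TGFβ, and 9 higher and 27 lower were also called by the difference. With a log2 threshold of 1 these were 431, 606, 0 and 2, and differences numbered 0 above and 7 below 0. DESeq2 on whole reads of all 8 libraries (added after seeing the data) called 15 differences above 0, and 3 genes higher with TGFβ and by the difference, and kept 40 of the 41 differences. edgeR on the same reads kept all 41, as did a pseudocount of 5 and TMM factors, and the correction for length and GC content kept 38. Signs were checked for 60 genes, those with a called difference and those with the largest rises and falls with TGFβ. None of their called effects changed sign with a pseudocount of 5, TMM factors, a replicate block or correction for length and GC content. The same held in the fit of the treated libraries alone and in fits that left out a library. Signs of the other list genes were not checked. Signs under edgeR, DESeq2 or a minimum mean were not checked either.

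Replicate numbers are shared across conditions, and the deviations of same-numbered libraries had correlations between -0.09 and 0.05. The labels do not say whether same-numbered libraries were prepared together, and correlations over all genes cannot settle it. With a replicate block 1164 genes were higher and 1547 lower with TGFβ, 7 differences lay above and 32 below 0, 1 gene was higher and 14 lower in both tests, and *PHF13* stood at -1.66. *CD69*, *PDGFB* and *ORC1* then lost the call of the difference. Of 36 list medians with TGFβ, 28 kept their sign in all 7 alternatives.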
